A study of Mus musculus with 10 samples.

Results

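Brain microvessels are built of an inner endothelial tube and an outer coat of mural cells. Endothelial cells of the brain form the blood-brain barrier, with tight junctions between neighbouring cells and dedicated transporters for glucose, lactate, hormones and lipids. The mural coat holds contractile smooth muscle on arteries and arterioles and pericytes on capillaries. The genes described here are 27 endothelial genes and 10 genes of smooth muscle or pericytes, kept as 2 separate classes and taken from a list of known cell type genes. A gene counted as measured when a probe set was annotated to it alone, which left 26 endothelial and 10 mural genes, 36 of 37 listed and of 19939 genes on the arrays. Ly6c1, an endothelial surface protein gene, was not measured in this way. Each of the 36 genes had a single such probe set.

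The data are microarray profiles (Affymetrix GeneChip Mouse Gene 1.0 ST) of both hippocampi of 10 male mice aged 16 weeks, with an array for each animal. The Dp3Yah group (5 mice) carried the duplication Dp(16Hspa13-App)3Yah, which gives 3 copies in place of 2 of the chromosome 16 segment from Hspa13 to Gabpa, while App has 2 copies. The control group was made of 5 littermates without the duplication. The labels give a C57BL/6N background for both groups, whereas the study's methods describe backcrossing of the line towards C57BL/6J. Each array is a separate animal. The duplication is present in every cell of the mouse, so the vessels carry it as well as the neurons. Since RNA came from whole tissue, the signal of vascular cells is mixed with that of any other cells that express these genes. Fewer vascular cells and less RNA per vascular cell cannot be told apart either.

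The duplicated segment runs from 75755190 to 84863783 on chromosome 16 (GRCm38.p6). Of the 36 measured genes, 4 lie on chromosome 16 and 0 of these in the segment. Myh11 (chr16:14194527-14292188), Cldn5 (chr16:18776847-18778262) and Mylk (chr16:34745199-35002436) lie proximal to it, and Erg (chr16:95359169-95586600) lies distal to it. The copy number of the endothelial and mural genes described was therefore the same in both groups.

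Marker genes of the labelled tissue gave signal in every mouse, which describes the arrays and is no test of the dissection. The 8 hippocampal neuron genes averaged 8.38 to 8.73 on the log2 scale in the 10 mice, and the vascular markers Cldn5 and Rgs5 read 8.16 to 8.75 and 8.62 to 9.07, beside a median of 6.38 over all genes. Values of different probe sets are not comparable as amounts of RNA, so levels are compared below only between mice for the same gene. Array medians ran from 5.64 to 5.71, and a typical gene had an SD of 0.09 on the log2 scale among mice of a group (the median over all genes). The choroid plexus list (13 measured genes such as Ttr, the thyroid hormone carrier of that epithelium) differed widely between mice within each group, with means per mouse of 5.87 to 7.39 in Dp3Yah and 5.79 to 7.48 in control.

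Endothelial genes share an ETS motif in many of their regulatory regions, bound by factors such as Erg and Fli1, and the sequence CAGGAAG was searched on both strands of RefSeq promoter windows (GRCm38.p6, 250 bases before to 50 after each start). Windows were at hand for 19 of the 27 endothelial and 7 of the 10 mural genes. The motif stood in 6 of 28 endothelial windows (21.4%), in 0 of 7 mural windows and in 13.3% of all 32851 windows. The endothelial genes with a match were Egfl7, Emcn, Erg, Itm2a and Lef1. The stretch with the match before an annotated start is shown for each of these genes (for Egfl7, 1 of 2 starts with a match). For Erg (gene span 95359169 to 95586600) and Lef1 (131110297 to 131224357) the stretch lies inside the gene, at an internal start. Capitals mark the motif (CTTCCTG is the same motif on the other strand). These 5 of 19 genes were picked for having a match, so the letters they share are not a trait of the class. A match describes the letters only.
Egfl7 (chr2:26580973-26581060, plus strand): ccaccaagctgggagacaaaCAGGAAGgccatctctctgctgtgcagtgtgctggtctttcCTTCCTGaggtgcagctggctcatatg
Emcn (chr3:137340884-137340930, plus strand): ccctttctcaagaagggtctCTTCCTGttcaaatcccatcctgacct
Erg (chr16:95459362-95459408, minus strand): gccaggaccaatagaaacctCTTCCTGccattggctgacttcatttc
Itm2a (chrX:107403577-107403610, minus strand): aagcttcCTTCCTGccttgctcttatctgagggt
Lef1 (chr3:131156260-131156293, plus strand): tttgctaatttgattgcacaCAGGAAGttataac
The CArG box, which serum response factor binds at contractile genes, was found in 0 of the 7 mural windows (Acta2, Cnn1, Mylk, Des, Rgs5, Abcc9 and Vtn), in 1 endothelial window (Lef1) and in 1.63% of all windows. No window was at hand for Tagln, Myh11 and Pdgfrb. A lack of matches to the searched pattern does not show that these short windows, or the wider promoters, have no CArG box.

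The comparison of Dp3Yah with control asked whether the 3-copy segment altered the expression of vascular genes in the hippocampus. Of the 26 endothelial and 10 mural genes, 0 passed the test across all genes (limma, Benjamini-Hochberg adjusted p under 0.05), beside 3 of 19939 genes or 0.015%. At an unadjusted p under 0.05, 0 endothelial genes and 1 mural gene (Tagln) were found, against 5.08% of all genes. The fold change rank statistic of the study's methods passed 1 gene of each class (Slco1a4 and Tagln), against 4.59% of all genes. Tagln, which encodes the actin-binding protein transgelin of smooth muscle, was 0.16 lower on the log2 scale in Dp3Yah mice (SE 0.040, 0.894-fold, limma unadjusted p = 0.00156, adjusted p = 0.922). The median difference was -0.03 over the endothelial genes and 0.02 over the mural genes, beside 0.00 over all genes, of which 9328 had a positive and 10611 a negative difference.

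The precision of these differences can be read from their intervals. The 95% confidence interval of every one of the 36 genes lay within a 1.5-fold change in either direction, the ratio of 3 copies to 2, which was so for 19852 of the 19939 genes on the arrays. Within a 1.3-fold change lay the intervals of 34 of the 36 genes, 24 endothelial and 10 mural, beside 19396 of all genes. The 2 with wider intervals were Slco1a4 and Lef1. The intervals describe array signal, and a mean level above the median of all genes was held by 20 endothelial and 4 mural genes. Of the 6 contractile genes, 1 was above it. How far the signal of the dimmer genes follows their RNA was not tested. Absolute differences were smaller than the SD between mice of a group for 24 of 26 endothelial genes and 8 of 10 mural genes (88.9% together), beside 83.9% of all genes.

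**Figure D1:**
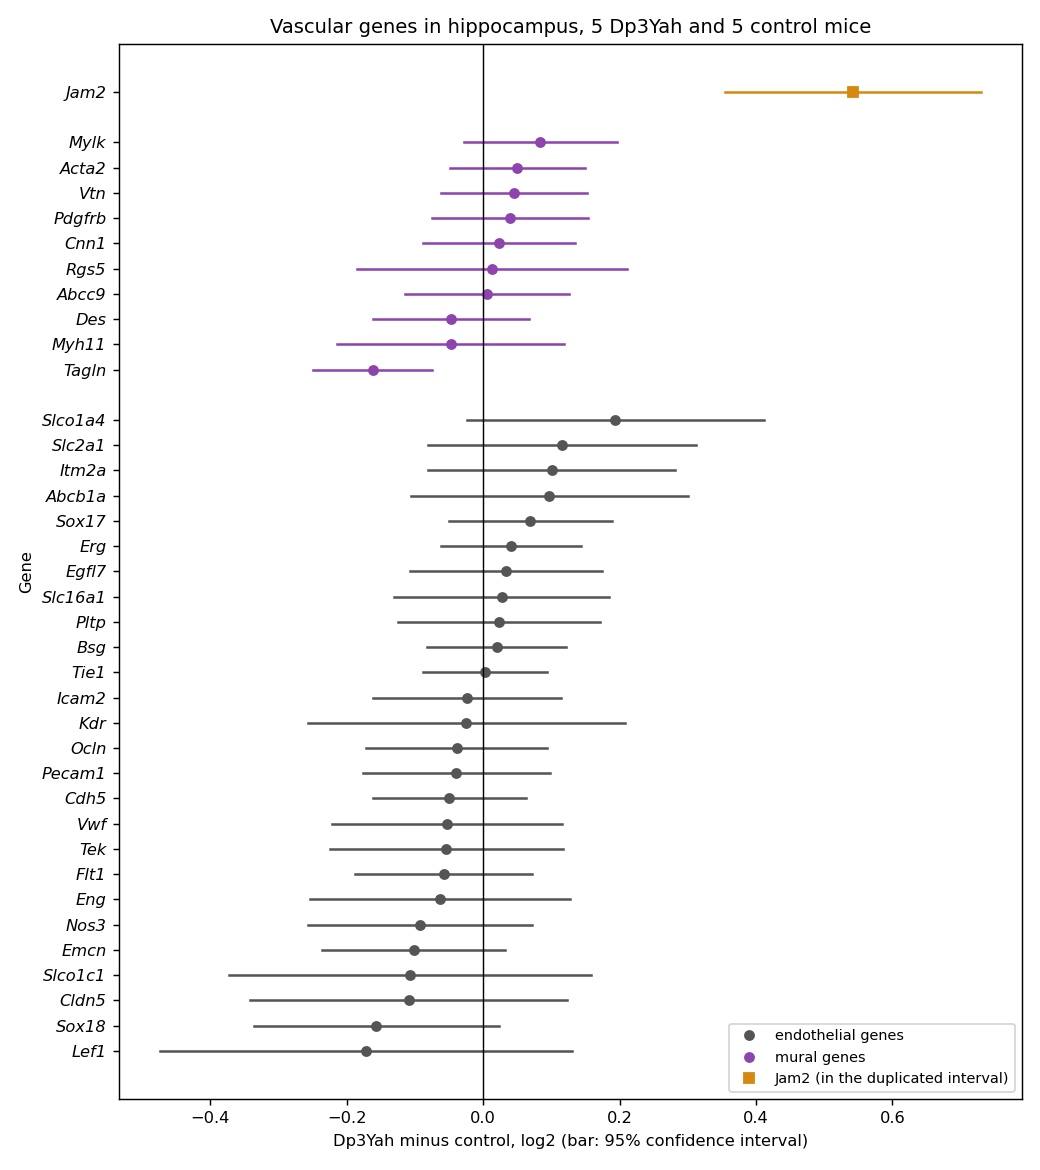
Difference in mean log2 expression between 5 Dp3Yah and 5 control mice (x axis) for each of the 26 endothelial and 10 mural genes (y axis), as points with 95% confidence intervals from limma. Of the vascular genes the interval of Tagln alone leaves out 0 (-0.25 to -0.07), and Jam2, which lies in the duplicated segment, is drawn for scale at 0.54.

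Junction and adhesion genes came first in the endothelial class. All 6 had a negative difference, from -0.11 to -0.02, and 0 of 6 passed the test. Cldn5 encodes claudin-5, the main sealing protein of blood-brain barrier tight junctions. It read 8.33, 8.41, 8.22, 8.57 and 8.31 in Dp3Yah mice 1 to 5 and 8.43, 8.16, 8.34, 8.75 and 8.72 in controls 1 to 5. Control 2 held the lowest and control 4 the highest value, so the Dp3Yah mice lay inside the control range. The difference was -0.11 (95% confidence interval -0.34 to 0.12, limma adjusted p = 0.950).

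Emcn, which encodes endomucin, a sialomucin of venous and capillary endothelium, read 8.67, 8.86, 8.60, 8.71 and 8.70 in Dp3Yah and 8.69, 8.80, 8.84, 8.73 and 8.99 in control mice. Of the Dp3Yah mice, 2 were below every control and 0 above (difference -0.10, 95% confidence interval -0.24 to 0.03, limma adjusted p = 0.922). The other junction and adhesion genes stood closer to 0. Their differences were -0.05 for Cdh5 (VE-cadherin of adherens junctions), -0.04 for Pecam1 (an adhesion molecule at endothelial contacts), -0.04 for Ocln (occludin) and -0.02 for Icam2 (a ligand of leukocyte integrins).

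Growth factor receptors of the endothelium were likewise not called (0 of 5). Flt1 and Kdr, the receptors of vascular endothelial growth factor, had differences of -0.06 and -0.02. Tek, the angiopoietin receptor, had -0.05, its relative Tie1 had 0.00, and Eng, a co-receptor for the transforming growth factor family, had -0.06. Kdr varied more between mice than its group difference, from 6.03 to 6.63 in Dp3Yah and from 6.10 to 6.58 in control. Tie1 varied least of the endothelial genes, with an SD between mice of 0.05 and a 95% confidence interval of -0.09 to 0.09.

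Of the transporters and their chaperone, 5 of 6 had a positive difference and 0 of 6 passed the test. Slco1a4, an organic anion transporter of brain capillaries, had the widest positive difference of the class. It read 7.52, 7.80, 7.74, 7.81 and 8.19 in Dp3Yah mice and 7.56, 7.49, 7.59, 7.67 and 7.78 in controls. In 3 of 5 Dp3Yah mice it was above every control, with Dp3Yah 5 the highest of all and Dp3Yah 1 below 4 controls. The difference was 0.19 (SE 0.10, 1.14-fold, 95% confidence interval -0.02 to 0.41, limma unadjusted p = 0.0759, adjusted p = 0.922). Slco1a4 was the endothelial gene that passed the rank statistic (f = 0.986, on a scale where values near 1 stand for higher ranks in Dp3Yah).

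Slc2a1, the glucose transporter GLUT1 of the barrier, read 10.58, 10.16, 10.39, 10.17 and 10.29 in Dp3Yah and 10.40, 10.33, 10.03, 10.06 and 10.19 in control mice. The groups overlapped, with 1 Dp3Yah mouse above every control (difference 0.11, 95% confidence interval -0.08 to 0.31, limma adjusted p = 0.939). Abcb1a, the P-glycoprotein efflux pump, had a difference of 0.10, with 3 Dp3Yah mice above and 1 below every control. Slc16a1, the lactate transporter MCT1, had 0.03, and Bsg, its chaperone basigin, 0.02. Slco1c1, the thyroid hormone transporter, was the exception in sign at -0.11, and its values spread from 8.11 to 8.81 within the controls alone.

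The 4 transcription factors differed in sign from each other. Sox18, a SoxF factor of endothelial identity, read 7.01, 6.68, 6.55, 6.93 and 6.73 in Dp3Yah mice and 6.89, 6.85, 6.86, 7.10 and 6.98 in controls. Dp3Yah mice 2, 3 and 5 were below every control and Dp3Yah 1 and 4 were among them (difference -0.16, 95% confidence interval -0.34 to 0.02, limma unadjusted p = 0.0823, adjusted p = 0.922). Its relative Sox17, a factor of arterial endothelium, had the opposite sign. Sox17 read 5.17, 4.93, 5.04, 5.08 and 5.17 in Dp3Yah and 5.01, 5.09, 4.88, 5.00 and 5.06 in control mice, with a difference of 0.07 (95% confidence interval -0.05 to 0.19, limma adjusted p = 0.939).

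Erg, the ETS factor that maintains endothelial identity and lies on chromosome 16 in 2 copies, had a difference of 0.04 (95% confidence interval -0.06 to 0.14, limma adjusted p = 0.954). Lef1, a nuclear partner of beta-catenin in the Wnt signal that maintains the barrier, had -0.17 with the widest spread of all members, an SD between mice of 0.27 (limma adjusted p = 0.939). Its control values ran from 6.74 to 7.58 and its Dp3Yah values from 6.72 to 7.23.

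Secreted, enzyme and surface genes closed the endothelial class with 0 of 5 called. Egfl7, a secreted vessel guidance protein, had a difference of 0.03, and Pltp, a phospholipid transfer protein, 0.02. Itm2a, a membrane protein enriched in brain endothelium, had 0.10. Vwf, the clotting protein von Willebrand factor, had -0.05. Nos3, the endothelial nitric oxide synthase, had -0.09, with 3 Dp3Yah mice below every control and Dp3Yah 2 above every control.

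**Figure D2:**
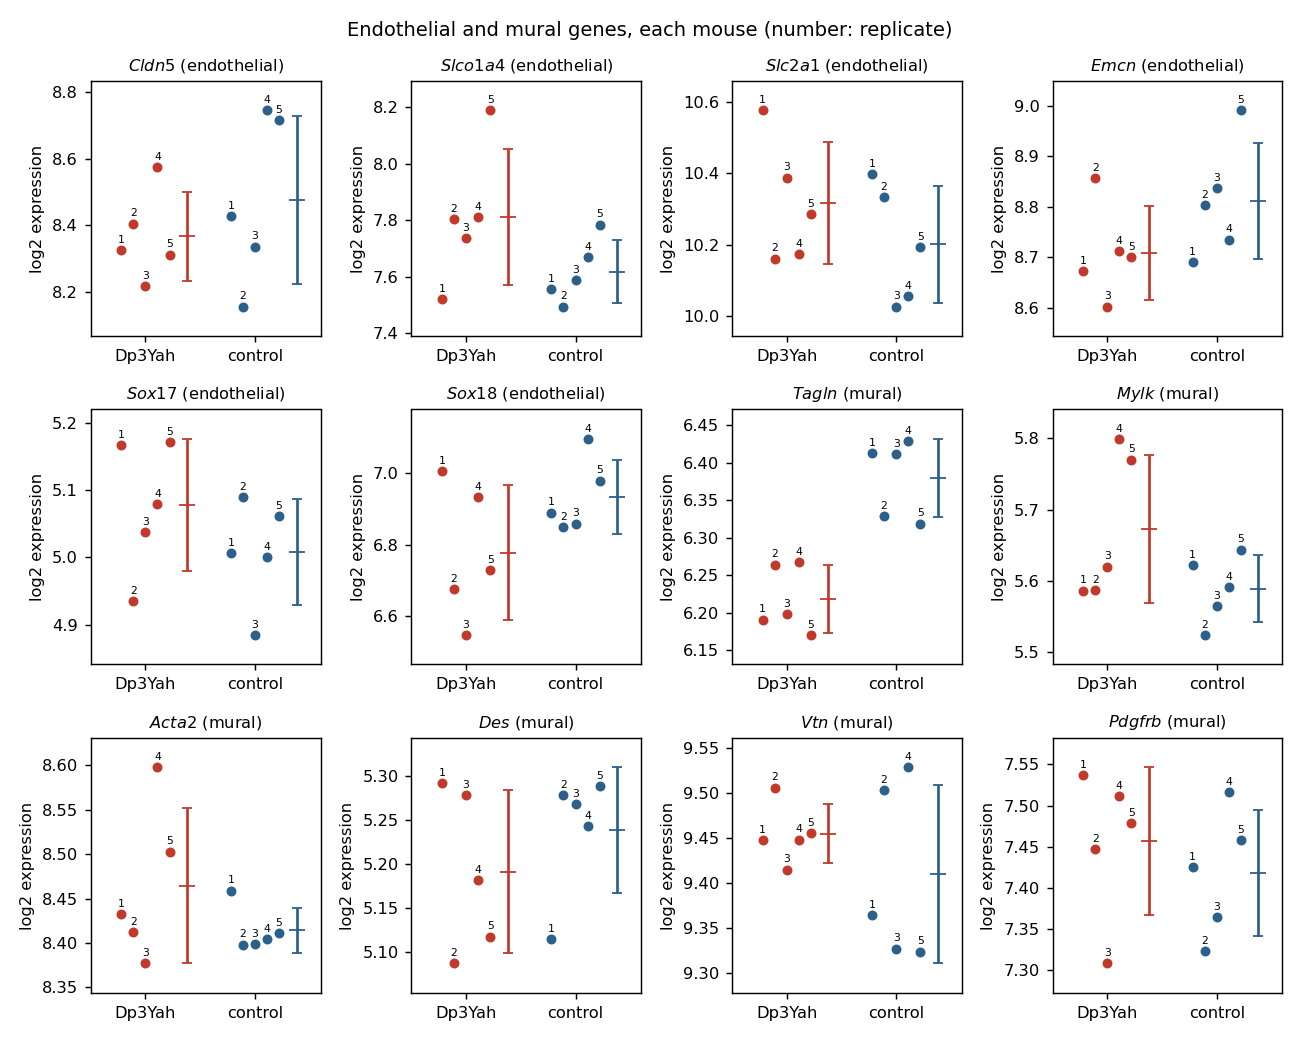
Deposited log2 expression (y axis, a separate scale for each gene) of 6 endothelial and 6 mural genes in each mouse, with the replicate number above each point and the group mean ± SD beside the points. In the Tagln panel the 5 Dp3Yah mice (6.17 to 6.27) lie under the 5 controls (6.32 to 6.43), and in the other panels the groups overlap.

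Contractile genes of smooth muscle were the first part of the mural class. Of the 6, 3 had a positive and 3 a negative difference. Tagln read 6.19, 6.26, 6.20, 6.27 and 6.17 in Dp3Yah mice and 6.41, 6.33, 6.41, 6.43 and 6.32 in controls. All 5 Dp3Yah mice were below every control, which was so for 0.391% of all genes in this direction. The reverse order, all Dp3Yah mice above every control, was seen for 0 members and 0.522% of all genes. The 95% confidence interval of the difference was -0.25 to -0.07. Tagln also passed the rank statistic (f = 0.0093). Its mean level was below the median of all genes, so its signal was in the dimmer part of the array. Tagln lies on chromosome 9 (45929628 to 45936058).

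Tagln stood apart from the other contractile genes, which overlapped between the groups. Acta2, the smooth muscle alpha-actin, read 8.43, 8.41, 8.38, 8.60 and 8.50 in Dp3Yah mice and 8.46, 8.40, 8.40, 8.40 and 8.41 in controls. Dp3Yah 4 and 5 were above every control and Dp3Yah 3 below (difference 0.05, 95% confidence interval -0.05 to 0.15, limma adjusted p = 0.943). Mylk, the myosin light chain kinase that starts contraction, read 5.59, 5.59, 5.62, 5.80 and 5.77 in Dp3Yah and 5.62, 5.52, 5.56, 5.59 and 5.64 in control mice. The same mice, Dp3Yah 4 and 5, were above every control for Mylk (difference 0.08, 95% confidence interval -0.03 to 0.20, limma adjusted p = 0.922).

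Des, the intermediate filament desmin of muscle and pericytes, read 5.29, 5.09, 5.28, 5.18 and 5.12 in Dp3Yah and 5.12, 5.28, 5.27, 5.24 and 5.29 in control mice. Control 1 was among the low Dp3Yah mice (difference -0.05, 95% confidence interval -0.16 to 0.07, limma adjusted p = 0.951). Myh11, the smooth muscle myosin heavy chain, had a difference of -0.05, and Cnn1, the actin-binding calponin, 0.02. Myh11 was called neither up nor down from its 2-copy position on chromosome 16 (95% confidence interval -0.21 to 0.12).

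All 4 pericyte genes had a positive difference between 0.01 and 0.05, and 0 of 4 passed the test. Pdgfrb, the receptor through which endothelial platelet-derived growth factor holds pericytes to the vessel, read 7.54, 7.45, 7.31, 7.51 and 7.48 in Dp3Yah mice and 7.43, 7.32, 7.36, 7.52 and 7.46 in controls. Dp3Yah 3 was the lowest and Dp3Yah 1 the highest of the 10 mice (difference 0.04, 95% confidence interval -0.08 to 0.15, limma adjusted p = 0.960). Vtn, the matrix protein vitronectin, read 9.45, 9.51, 9.41, 9.45 and 9.46 in Dp3Yah and 9.36, 9.50, 9.33, 9.53 and 9.32 in control mice. Its Dp3Yah mice lay inside the control range (difference 0.05, 95% confidence interval -0.06 to 0.15, limma adjusted p = 0.951). Rgs5, a regulator of G-protein signalling, and Abcc9, a channel subunit of pericytes, had differences of 0.01 each.

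The mean over all members of a class differed between the groups by less than its SD between mice. The 26 endothelial genes averaged 7.57, 7.54, 7.53, 7.61 and 7.61 in Dp3Yah mice (7.57 ± 0.04, SD, n = 5) and 7.60, 7.54, 7.50, 7.62 and 7.69 in controls (7.59 ± 0.07, SD, n = 5). The 10 mural genes averaged 6.90, 6.89, 6.84, 6.96 and 6.91 in Dp3Yah mice (6.90 ± 0.04, SD, n = 5) and 6.90, 6.84, 6.88, 6.95 and 6.93 in controls (6.90 ± 0.05, SD, n = 5). These means are a description and were not tested. The contractile genes alone averaged 6.15 ± 0.04 in Dp3Yah and 6.17 ± 0.05 in control mice, and the pericyte genes 8.02 ± 0.08 and 7.99 ± 0.05 (SD, n = 5 each).

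**Figure D3:**
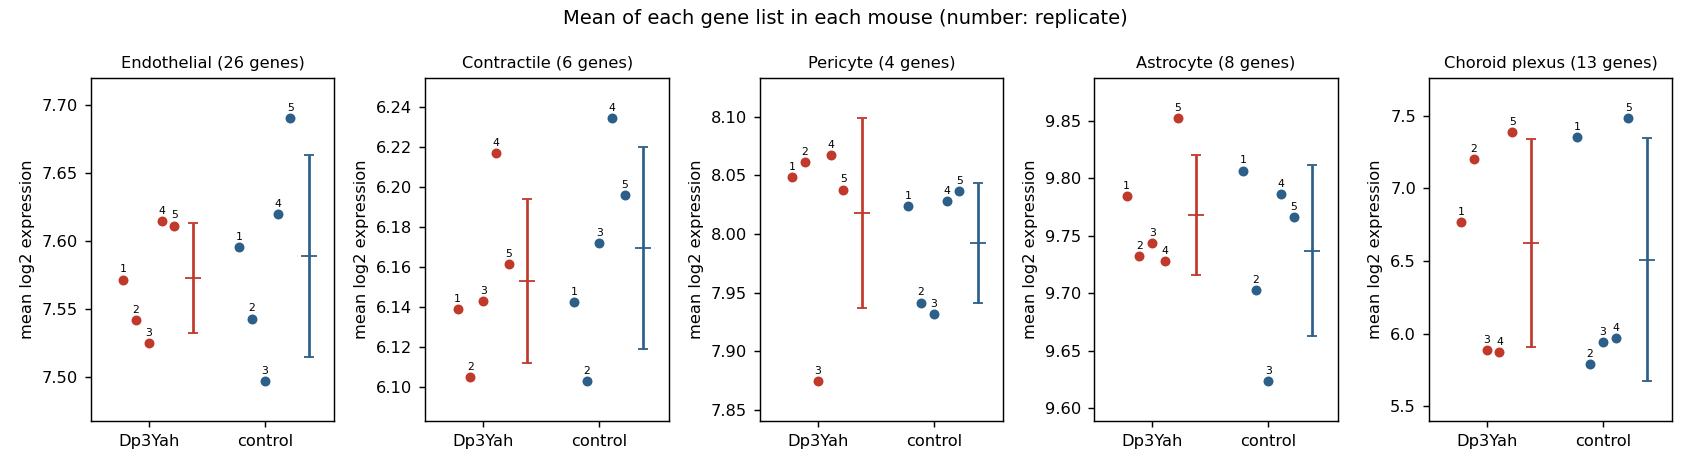
Mean log2 expression of each gene list (y axis, a separate scale for each list) in each mouse, with the replicate number and the group mean ± SD. The endothelial list runs from 7.50 to 7.69 over the 10 mice, and the choroid plexus list from 5.79 to 7.48, with high and low mice in both groups.

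Individual mice differed more than the groups did. Dp3Yah 3 held the lowest value of its group for 6 of 10 mural and 9 of 26 endothelial genes, and control 2 held the lowest of its group for 6 of 10 mural and 10 of 26 endothelial genes. These 2 mice had the lowest Rgs5 of their group (8.62 in Dp3Yah 3 and 8.66 in control 2, against 8.89 to 9.07 in the other mice). For Vtn, Dp3Yah 3 was again the lowest of its group (9.41), but control 2 was not (9.50). At the other end, Dp3Yah 4 and control 4 each held the highest value of their group for 5 of 10 mural genes. Control 5 held the highest for 10 and the lowest for 0 of 26 endothelial genes, and control 3 the lowest for 12 and the highest for 0. Over all genes, control 3 also had the lowest mean of the controls (6.586) and control 5 a high one (6.617). Dp3Yah 3, in contrast, had the highest mean of its group over all genes (6.619). Dp3Yah 2 had the lowest mean over all genes of the 10 mice (6.564). It held the lowest value of its group for 9 and the highest for 5 of 26 endothelial genes. The part of an array-wide shift in these counts was not tested.

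Choroid plexus content varied over the same mice. Dp3Yah 1, 2 and 5 and controls 1 and 5 had choroid plexus means of 6.77 to 7.48, against 5.79 to 5.97 in the other 5 mice, and these 5 choroid-rich mice also held the 5 highest values of Rgs5 (9.01 to 9.07). Dp3Yah 4 and control 4, which held the highest value of their group for 5 of 10 mural genes, were among the mice with low choroid plexus means (5.87 and 5.97). The other pericyte genes did not share the order of Rgs5. Vtn was highest in control 4 (9.53). Pdgfrb was high in Dp3Yah 1 (7.54) but also in control 4 (7.52), and Abcc9 in control 5 (6.35) but also in Dp3Yah 4 (6.34). With the choroid plexus mean as a covariate, 0 endothelial and 0 mural genes passed the adjusted test. The difference of Tagln was then -0.16 (limma unadjusted p = 0.00253). That of Lef1 was -0.20 with an unadjusted p of 0.0611, from 0.241 without the covariate, and that of Slco1c1 was -0.13 with 0.143, from 0.398. The part of choroid plexus content in the spread of the vascular genes was not tested further.

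**Figure D4:**
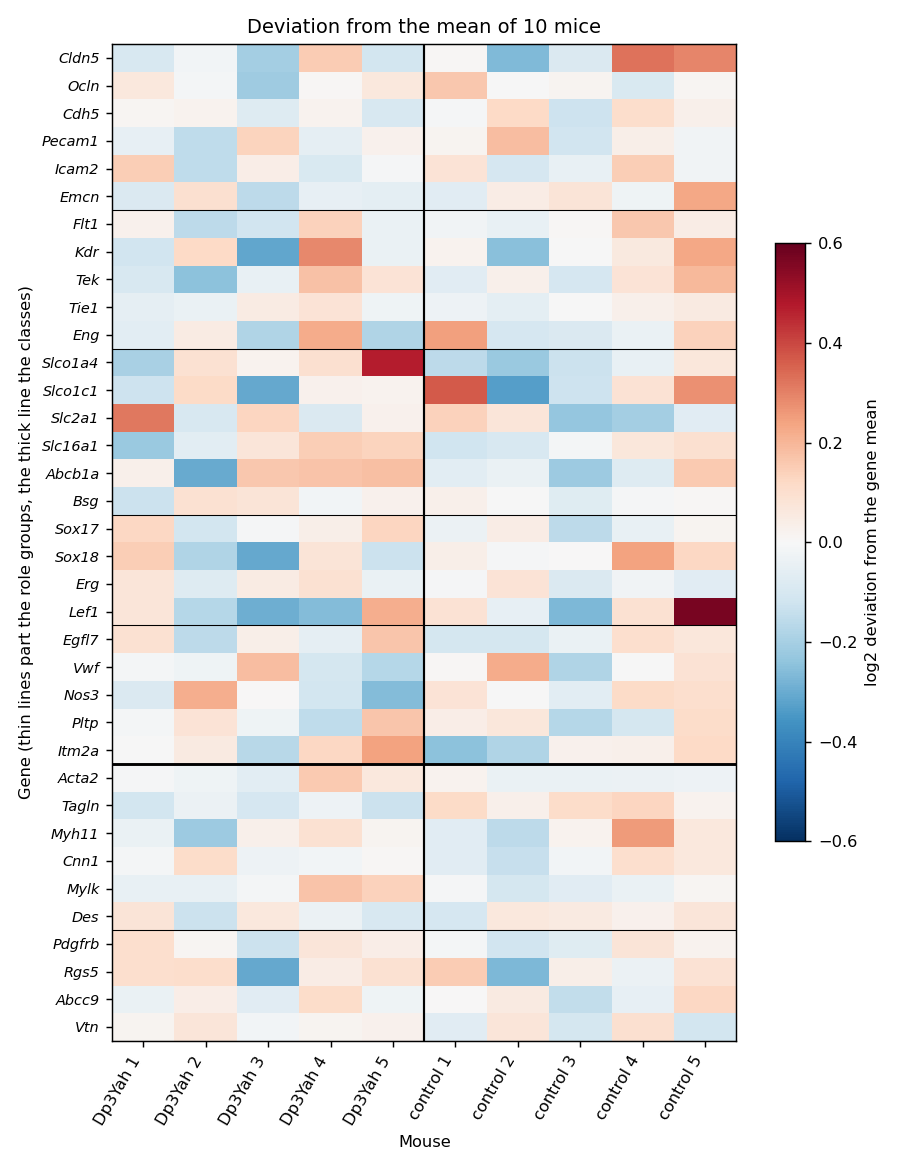
Deviation of each mouse (columns, Dp3Yah left and control right) from the mean of 10 mice, for each endothelial and mural gene (rows, by role), on the log2 scale (blue below and red above the mean). The row of Tagln is blue in the 5 Dp3Yah and red in the 5 control mice, while other rows hold both colours in each group.

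Of the 72 measured genes of a wider vascular list, which hold ligands, receptors, targets, barrier genes and further mural genes, 0 passed the test across all genes and 6 had an unadjusted p under 0.05 (3 higher and 3 lower), beside 5.08% of all genes. Without the triplicated Jam2 these were 5 of 71 (2 higher and 3 lower), with a median difference of 0.00. Jam2, a junctional adhesion molecule of endothelial tight junctions, lies in the duplicated segment and was 0.54 higher in Dp3Yah mice. It read 9.52, 9.46, 9.87, 9.52 and 9.69 in Dp3Yah and 9.08, 9.28, 8.85, 9.07 and 9.08 in control mice. All Dp3Yah mice were above every control (SE 0.087, 1.46-fold, limma adjusted p = 0.0998). The junction genes of the endothelial class that share its location at cell contacts had differences no higher than -0.02.

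Among the 12 ligands, Vegfa and Angpt1 had the smallest unadjusted p. Vegfa, the vascular endothelial growth factor that astrocytes and neurons supply to vessels, read 7.57, 7.50, 7.77, 7.68 and 7.52 in Dp3Yah and 7.83, 7.92, 7.74, 7.89 and 7.74 in control mice. Dp3Yah 3 alone reached the control range (difference -0.21, SE 0.059, limma unadjusted p = 0.00322, adjusted p = 0.922). Angpt1, the activating ligand of the Tek receptor, read 4.94, 4.81, 5.13, 5.02 and 4.80 in Dp3Yah and 4.53, 4.76, 4.74, 4.70 and 4.75 in control mice. Its groups did not overlap (difference 0.24, SE 0.068, limma unadjusted p = 0.00410, adjusted p = 0.922). The level of Angpt1 was below the median of all genes (6.38), in the dimmer part of the array. Both ligands had receptors among the members with smaller differences, -0.06 for Flt1, -0.02 for Kdr and -0.05 for Tek.

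**Figure D5:**
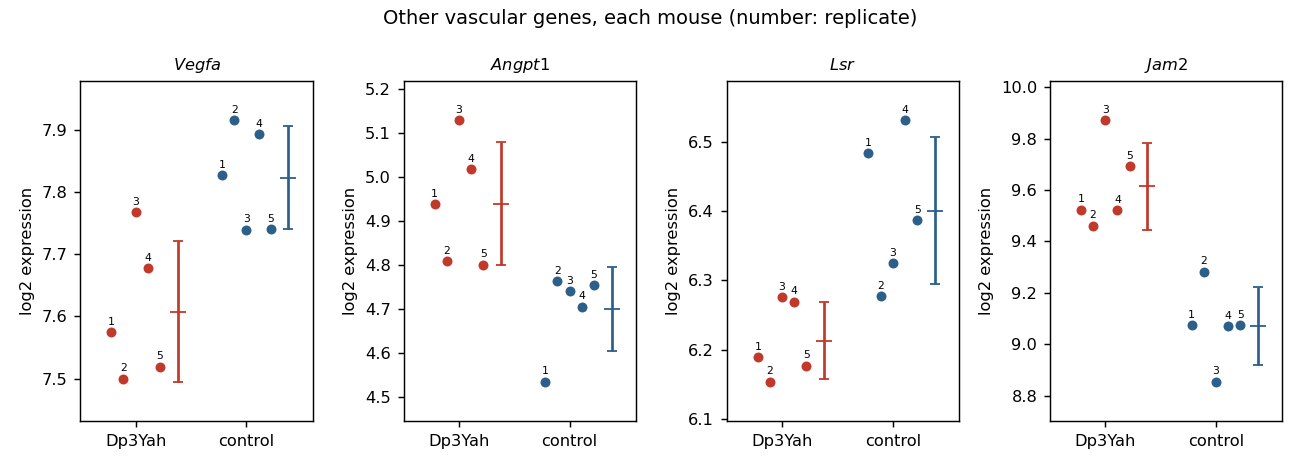
Deposited log2 expression (y axis, a separate scale for each gene) of Vegfa, Angpt1, Lsr and Jam2 in each mouse, with the replicate number and the group mean ± SD. Groups do not overlap for Angpt1 (lowest Dp3Yah 4.80, highest control 4.76), Lsr and Jam2, and Vegfa overlaps in Dp3Yah 3 (7.77).

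Of the 14 further barrier genes, Lsr had the smallest unadjusted p beside Jam2. Lsr encodes the lipolysis-stimulated lipoprotein receptor, angulin-1, of tricellular junctions. It read 6.19, 6.15, 6.28, 6.27 and 6.18 in Dp3Yah and 6.48, 6.28, 6.32, 6.53 and 6.39 in control mice, with a difference of -0.19 (SE 0.053, limma unadjusted p = 0.00399, adjusted p = 0.922). The lowest control (6.278) and the highest Dp3Yah mouse (6.276) were almost level, and the mean level of Lsr was below the median of all genes. In the 11 receptors, Notch3 (-0.07) and Reck (0.06) had the smallest p. In the 13 targets and transcription factors these were Axin2 (-0.21) and Hey1 (0.12), targets of the Wnt and Notch signals that neurons and glia also use. In the 22 further mural and contractile genes these were Ndufa4l2 (-0.21), a pericyte-enriched mitochondrial protein gene, and Cspg4 (0.10), the proteoglycan NG2 of pericytes and oligodendrocyte precursors.

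Lists of neighbouring cell types were read beside the vascular genes. All 9 microglial genes had a positive difference (median 0.10), 4 with an unadjusted p under 0.05, beside 9328 positive genes and 5.08% with such a p among all 19939 genes. Their mean was 7.58 to 7.77 in Dp3Yah and 7.47 to 7.58 in control mice. Ctss (0.19) and Itgam (0.15) had the smallest p of them. Of the 6 perivascular macrophage genes, 5 were negative (median of the list -0.06) and 2 had an unadjusted p under 0.05, Cbr2 (-0.20) and Mrc1 (-0.21). The mean of the 6 genes was 4.71 to 4.88 in Dp3Yah and 4.80 to 4.92 in control mice, and 0 of the 6 were above the median level of all genes. None of these genes passed the adjusted test (limma adjusted p = 0.922 for Ctss, Itgam, Cbr2 and Mrc1). In the perivascular fibroblast and meninges list (median 0.03, 1 of 10 genes with an unadjusted p under 0.05) Dcn had 0.35 and Col1a1 -0.07, with list means of 6.90 to 7.15 in Dp3Yah and 6.90 to 7.12 in control mice.

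The remaining lists held no adjusted call either. Their median differences were 0.02 for fenestrated endothelium, 0.03 for astrocytes, 0.07 for the choroid plexus, -0.09 for red blood cells and 0.03 for hippocampal neurons, and C1ql2 was the only gene of these lists with an unadjusted p under 0.05. The genes with the smallest p were Plvap (0.07) and Igfbp3 (0.02) of fenestrated endothelium, Slc1a3 (0.11) and Slc1a2 (0.04) of astrocytes, and Calml4 (0.15) and Slc4a5 (0.15) of the choroid plexus. Among the 2 measured red blood cell genes, Alas2 had -0.15 and Slc4a1 -0.03, and control 1 was high in Alas2 (7.15, against 6.24 to 6.42 in the other controls). In the hippocampal neuron list, C1ql2 of dentate granule cells read 8.11 to 8.32 in Dp3Yah and 8.36 to 8.55 in control mice. All 5 Dp3Yah mice were below every control (difference -0.24, SE 0.052, limma unadjusted p = 0.000461, adjusted p = 0.708), and this unadjusted p was smaller than that of Tagln. Fibcd1 of CA1 neurons had 0.25 (unadjusted p = 0.0694, limma adjusted p = 0.922). Whether the cell content of the dissected tissue had a part in the difference of Tagln was not tested.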

How the data were processed

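The deposited table held log2 values for 35556 probe sets on 10 arrays. Per the labels, the authors made these log2 values with RMA, which corrects background, normalises arrays to a common distribution and summarises probes, and also name limma and the mm10 build. No version of these is given in the sources used here. Probe sets annotated to 1 gene (21789) were kept, and those with several genes (1621) or without a name (12146) were left out. Of several probe sets for a gene, the one with the highest mean over all arrays was used (998 genes), giving 19939 genes, of which 19856 matched RefSeq of GRCm38.p6. No 2 arrays held identical values.

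Dp3Yah was compared with control by lmFit and eBayes of limma 3.58.1 in R 4.3.3 over all 19939 genes, with no covariate, two-sided, and Benjamini-Hochberg adjustment at 0.05 over all genes. Unadjusted p-values are from the same fit. Confidence intervals (95%) come from the moderated fit, whose precision is limited by the 10 arrays. The fold change rank statistic (FCROS) of the study's methods was rewritten in Python 3.11.15 with a trim of 0.25 and thresholds on f of 0.025 and 0.975. It was kept as an alternative because it passes a nearly fixed share of genes. Both were tested on simulated data. As further alternatives, the fit was repeated with a replicate block, array weights, a variance with trend and robust estimation, or the choroid plexus mean as covariate. It was also repeated on probe set means, on genes above the median level, after quantile normalisation, after centring on array medians, and without single mice.

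The members and all gene lists were chosen with earlier results of these data known. No test over a list was made, and lists are described by counts and medians beside those of all genes. Every measured member is named. Values per mouse are given for Cldn5, Pdgfrb and Tagln, for the 5 genes of each class with the smallest unadjusted p, and for members without overlap or past the rank statistic. From every other list the 2 genes with the smallest unadjusted p are named. Ranges or single values of Kdr, Slco1c1, Lef1, Rgs5, Abcc9 and Alas2 were added after their values were seen.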

Additional observations from a re-analysis of the deposited data

Results flagged for a closer look

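In 76 groups of 5 mice (2 groups for each of 36 genes and for both class means) a single mouse that stood far from the other 4 was looked for, by a gap above 0.71 of the range of the group. Chance alone flags about 1 in 20 groups, or 3.8 of 76, and 5 were found. In Dp3Yah 3, Rgs5 was low at 8.62 (the other 4 Dp3Yah mice 8.97 to 9.03) and Ocln was low at 6.12 (6.32 to 6.39). In Dp3Yah 2, Cnn1 was high at 5.42 (5.28 to 5.31). In control 1, Acta2 was high at 8.46 (8.40 to 8.41) and Des was low at 5.12 (5.24 to 5.29). Without Dp3Yah 3, the difference of Rgs5 was 0.09 and that of Ocln 0.01, and 0 members passed the adjusted test.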

How the results depend on the processing

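Under all 18 refits with limma, 0 of 36 members passed the adjusted test, and the lowest adjusted p of a member was 0.614 (Tagln without control 2). All 636 recomputed member differences stayed within 1 SD between mice of the reported value, which for most refits was fixed in advance. Leaving out 1 of 5 mice cannot shift a difference that far. The block, the other variance, the level filter and the probe set means leave a member difference as it is. Of the 36 members, 22 kept 1 sign. Tagln ranged from -0.18 to -0.15 in 17 refits, with unadjusted p of 0.00146 to 0.00677 and adjusted p of 0.614 to 0.999. Tagln is below the median level, so with dim genes left out 0 mural genes had an unadjusted p under 0.05. The rank statistic passed 915 genes in all, 1 endothelial (Slco1a4) and 1 mural (Tagln). Genes called across all genes numbered 6 with a trended and robust variance, 5 with array weights and 1 to 4 without each mouse in turn. Endothelial genes with an unadjusted p under 0.05 numbered 1 with array weights and 0 to 3 without each mouse in turn. The endothelial mean difference was -0.04 to 0.01 and the mural one -0.01 to 0.02 without each mouse in turn. The sign of the endothelial mean turned only without control 5 (0.01). The cause of these shifts was not tested.

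The replicate number as a block gave 3 endothelial genes with an unadjusted p under 0.05 (Slco1a4, Sox18 and Lef1), 1 mural gene and 0 members called. Mice of the same number share only that number, with correlations of their deviations from -0.36 to 0.32. Vegfa (-0.25 to -0.19), Angpt1 (0.19 to 0.27) and Lsr (-0.22 to -0.16), recomputed after their values were seen, did not pass the adjusted test in any refit, whereas Jam2 (0.48 to 0.60) passed with a trended and robust variance (adjusted p = 0.0447).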
